A study of Mus musculus with 4 samples.

Results

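Granzymes, perforin and other genes of the cytotoxic machinery of lymphocytes were examined for open chromatin in mouse CD4+ T cells polarized towards regulatory T cells with or without IL-4. The members were 7 genes: Gzma, Gzmb, Gzmc, Gzmk, Prf1, Nkg7 and Fasl. Around each of them, the window taken was its GENCODE record on GRCm38 (mm10) with 30 kb on each side. The ATAC-seq peaks of 4 libraries, merged where they shared at least 1 base, gave 51 regions in these windows, of 93679 in the whole genome. The windows covered 468110 bases, and the neighbouring genes Gzmb and Gzmc shared a part of theirs. Of the 51 regions, 7 were promoter regions, that is, within 1 kb of an annotated start site of a member, 36 were distal, beyond 1 kb of every annotated start site, and 8 lay at start sites of other genes.

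Cytotoxic T cells and natural killer (NK) cells kill by releasing granules onto a target cell. Perforin, the product of Prf1, forms pores, and granzymes, a family of serine proteases, enter through them and start apoptosis. Granzyme B cuts caspases and other substrates after aspartate, granzymes A and K are tryptase-like, and the gene of granzyme C lies beside that of granzyme B in a granzyme cluster on mouse chromosome 14. Nkg7 is a membrane protein of the granules that takes part in their release. Fasl is the ligand of the death receptor Fas and kills without granules. Regulatory T cells can use granzymes and perforin against other lymphocytes, and activated CD4+ T cells carry Fas ligand.

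ATAC-seq uses a transposase to insert adapters where chromatin is open, and a peak is a stretch in which insertions are enriched. Naive CD4+ T cells (CD62Lhigh CD44low CD25-) came from the spleens of 7-week-old male C57BL/6 mice of the wild type. Both groups were cultured for 48 h on plate-bound anti-CD3 (5 µg/ml) with soluble anti-CD28 (1 µg/ml), human TGF-β1 (5 ng/ml) and mouse IL-2 (10 ng/ml), and 50000 cells entered each transposition. The groups differed in mouse IL-4, which was left out for 2 libraries (iTreg+PBS) and added at 15 ng/ml for 2 libraries (iTreg+IL-4). The study describes its samples as pooled and biologically independent, and no sample of untreated naive cells or of cytotoxic cells was analysed here.

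Peaks numbered 77064 and 56645 in the iTreg+PBS lists and 78670 and 67743 in the iTreg+IL-4 lists (replicates 1 and 2 of each, the order used throughout), with median heights of 53, 32, 51 and 44 overlapping fragments. Read numbers per library are unknown. Where no peak is listed, nothing passed the threshold of the peak caller at that depth. Each peak was therefore ranked within its own list. The rank is the percentage of peaks in the list with a higher −log10 q, so 0 marks the strongest peak and 100 the weakest. Promoters of the T cell markers Cd3e, Cd3d, Cd3g, Cd4, Cd5, Cd28 and Lck had a peak in all 4 libraries (7 of 7 markers). Of 5 NK cell markers, none had a promoter peak in all 4 libraries. Klra1 had one in 3 libraries, Klrb1c in 1, and Ncr1, Klra8 and Tyrobp had none in any. Among B cell markers Cd79a had none, Ms4a1 had one in 3 libraries and Pax5 in all 4. Of 5 myeloid markers, Lyz2 and Csf1r had none, Itgam had one in 3 libraries and Cd14 and Spi1 in all 4, and of 2 CD8 T cell markers Cd8b1 had a peak in all 4 libraries and Cd8a in the 2 libraries numbered 1. The part of other cells in the results was not tested.

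The promoters of 5 members, Gzma, Gzmb, Prf1, Nkg7 and Fasl, had a peak in all 4 libraries at a start site that GENCODE and RefSeq both place within 100 bases of each other, and their sequences are shown because the peaks lie on them. Each is the 200 bases before the 5′-most of these start sites on GRCm38 (mm10), written 5′ to 3′ along the strand of the gene, and all of it lies inside the merged region of that promoter. Capitals mark exact matches, on either strand, to the letters searched: TGTGGTT for RUNX factors, TGANTCA for AP-1, TTCNNNGAA for STAT factors, GGTGTGA for T-box factors and the STAT6-type form with 4 free bases between the arms.
Gzma promoter (chr13:113100982-113101181, reverse strand): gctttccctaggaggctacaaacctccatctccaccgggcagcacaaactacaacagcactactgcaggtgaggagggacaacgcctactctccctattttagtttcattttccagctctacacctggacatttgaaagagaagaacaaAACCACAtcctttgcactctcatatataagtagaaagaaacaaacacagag
Gzmb promoter (chr14:56262335-56262534, reverse strand): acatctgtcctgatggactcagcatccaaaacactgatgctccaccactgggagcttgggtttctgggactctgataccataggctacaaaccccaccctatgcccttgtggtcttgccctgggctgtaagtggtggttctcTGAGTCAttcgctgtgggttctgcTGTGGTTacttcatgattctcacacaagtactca
Prf1 promoter (chr10:61297551-61297750, forward strand): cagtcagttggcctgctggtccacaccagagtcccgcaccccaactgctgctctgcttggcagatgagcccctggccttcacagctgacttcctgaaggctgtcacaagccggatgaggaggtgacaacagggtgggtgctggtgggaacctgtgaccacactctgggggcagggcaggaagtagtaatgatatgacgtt
Nkg7 promoter (chr7:43436873-43437072, forward strand): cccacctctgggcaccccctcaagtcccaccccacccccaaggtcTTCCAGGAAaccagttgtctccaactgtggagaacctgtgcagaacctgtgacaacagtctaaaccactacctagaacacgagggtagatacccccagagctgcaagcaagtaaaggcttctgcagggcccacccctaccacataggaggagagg
Fasl promoter (chr1:161788496-161788695, reverse strand): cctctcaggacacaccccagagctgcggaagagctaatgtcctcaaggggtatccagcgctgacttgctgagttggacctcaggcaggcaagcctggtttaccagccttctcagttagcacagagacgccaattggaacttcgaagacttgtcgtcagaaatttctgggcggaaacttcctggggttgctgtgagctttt

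The Gzmb promoter held an AP-1 and a RUNX match, the Gzma promoter a RUNX match on the other strand, and the Nkg7 promoter a STAT match with 3 free bases. The Prf1 and Fasl promoters held none of the 5 in these windows. Among the 200 bases before the start of 32851 genes, RUNX letters occurred in 3.49%, AP-1 letters in 5.48%, STAT letters in 5.49%, T-box letters in 2.64% and STAT6-type letters in 4.53%. A match describes the letters and not the binding of a factor.

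The strongest distal region called in all 4 libraries is shown for the 3 members in which it had the best mean rank over the libraries. Each sequence is the 200 bases around the centre of the merged region on GRCm38, along the strand of the member, with the same marks.
Gzmb, 22.1 kb upstream (chr14:56284285-56284484, reverse strand): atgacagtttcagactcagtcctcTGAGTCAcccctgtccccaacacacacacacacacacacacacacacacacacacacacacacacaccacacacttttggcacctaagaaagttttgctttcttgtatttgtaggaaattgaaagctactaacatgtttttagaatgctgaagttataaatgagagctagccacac
Gzmk, 2.7 kb upstream (chr13:113183452-113183651, reverse strand): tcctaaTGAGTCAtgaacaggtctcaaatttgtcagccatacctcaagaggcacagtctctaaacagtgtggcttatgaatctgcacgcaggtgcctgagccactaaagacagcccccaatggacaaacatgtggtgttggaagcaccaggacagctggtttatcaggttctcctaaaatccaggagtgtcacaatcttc
Fasl, 21.4 kb downstream (chr1:161766978-161767177, reverse strand): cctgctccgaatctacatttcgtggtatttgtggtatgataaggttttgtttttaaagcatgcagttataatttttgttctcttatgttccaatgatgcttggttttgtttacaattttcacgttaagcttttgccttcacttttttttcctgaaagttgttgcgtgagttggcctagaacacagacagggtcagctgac

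The Gzmb and Gzmk regions each held the AP-1 letters, and the Fasl region, which RefSeq assigns in part to an exon of the predicted noncoding gene Gm31869, held none of the 5. None was held either by the same stretch of the strongest distal regions of Gzma, Prf1 and Nkg7, which are not printed. Over the 200 bases around the centre of all member regions, AP-1 letters were found in 5 of 51 regions (9.80%), against 12.9% of 93503 regions on the assembled chromosomes. RUNX letters were found in 5 (9.80%, against 8.92%), T-box letters in 4 (7.84%, against 3.78%), STAT letters in 2 (3.92%, against 8.48%) and STAT6-type letters in 4 (7.84%, against 5.84%). These are counts of 2 to 5 regions, given as a description. The 4 with T-box letters included the Nkg7 promoter region, whose centre lies upstream of the stretch printed above.

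The cytotoxic loci held peaks in both conditions, and none of their regions had a peak in every library of 1 condition and in no library of the other. Of the 51 regions, 37 (72.5%) were called in all 4 libraries, against 51% of all regions in the genome, and 4 (7.84%) were called in a single library, against 21.6%. Regions with a peak in each iTreg+IL-4 library and in no iTreg+PBS library numbered 0 in the member windows, where 2.6% of all regions were called so (2437 regions). Regions of the opposite kind, with a peak in each iTreg+PBS library and in no iTreg+IL-4 library, also numbered 0, against 0.699% (655 regions). At such shares few or none would be met among 51 regions, so the counts of 0 say little about these loci. The first count was 6 of 51 without iTreg+PBS replicate 1 (11.8%, against 12.6% of all regions), 2 without iTreg+IL-4 replicate 2 (3.92%, against 10.6%) and 1 without iTreg+IL-4 replicate 1 (1.96%, against 6.60%). It was also 1 with lists of equal length (2.17% of 46, against 1.92%) and at a cover of 50% (1.96%, against 3.55%). The second was 1 without iTreg+PBS replicate 2 (1.96%, against 8.00%) or iTreg+IL-4 replicate 1 (1.96%, against 2.94%). None of these shares was far above that of all regions. Of the 14 regions that were not called in all 4 libraries, 13 (92.9%) lacked a peak in iTreg+PBS replicate 2, the shortest list, as did 83.9% of all such regions of the genome, and 6 (42.9%) lacked one only there, against 20.3%.

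Promoters with a peak numbered 6 of the 7 members in every library. In the genome, 60.2% of 21924 protein-coding genes had a promoter peak in all 4 libraries and 33.7% had none in any. Only with IL-4 a promoter peak was present for 0.333% of genes and only without IL-4 for 0.0684%, and no member was among them. The exact permutation test over libraries gave p = 1 for the number of member promoters, and 0.33 is the smallest two-sided p that 2 libraries against 2 allow. The plot of promoter ranks gives all of these values.

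**Figure D1:**
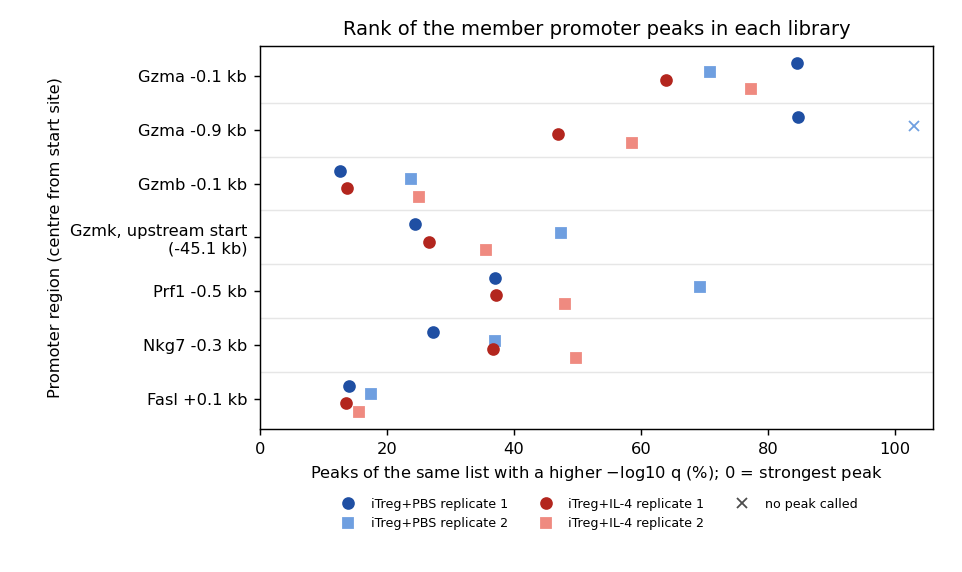
Rank of each member's promoter peaks within the list of each library (horizontal axis, percent of peaks in the same list with a higher −log10 q, strongest at 0), with 1 row per promoter region and 1 point per library. A cross marks a library without a peak, as for the region 0.9 kb upstream of Gzma in iTreg+PBS replicate 2. Gzmb and Fasl had the strongest promoter peaks, at ranks of 12.7 to 25.005 and 13.6 to 17.5, and the Gzma region at the start site the weakest mean rank, at 63.9 to 84.6.

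Gzmb had the strongest promoter peak of the granzymes. The region (chr14:56261884-56262785, over the start site on the reverse strand) had a height of 222 and 59 fragments in iTreg+PBS replicates 1 and 2 and of 196 and 85 in iTreg+IL-4 replicates 1 and 2. Its ranks were 12.7 and 23.8 without IL-4, against 13.7 and 25.005 with IL-4. The conditions overlapped, and in each the library numbered 1 had the stronger rank. Of the protein-coding genes with a promoter peak in all 4 libraries (13169 with ranks), 70.1% had a stronger mean promoter rank than Gzmb.

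Gzma had the weakest promoter of the members with a promoter peak, and part of it was not called in every library. The region over the start site (chr13:113100933-113101284) was called in all 4 libraries with heights of 24 and 17 without IL-4 and of 36 and 22 with IL-4. Its ranks were 84.6 and 70.9 for iTreg+PBS and 63.9 and 77.3 for iTreg+IL-4, so the conditions overlapped. A stronger mean promoter rank was found for 97.96% of genes with a promoter peak in all 4 libraries. A second region, centred 0.9 kb upstream (chr13:113101556-113102195), was called at rank 84.7 in iTreg+PBS replicate 1, at 46.9 and 58.7 in the iTreg+IL-4 libraries, and in iTreg+PBS replicate 2 not at all. Its heights were 24, 52 and 32 fragments. It was the member promoter region whose call in iTreg+PBS rested on 1 weak peak: it became a region called only with IL-4 when all lists were cut to the 56645 strongest peaks, when peaks had to cover 50% of the merged region, or without iTreg+PBS replicate 1.

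Gzmk and Gzmc had no peak within 1 kb of the start site of the usual transcript. For Gzmk, the start sites at 113180897 and 113180921 on chromosome 13 (reverse strand) had none, and the promoter peak counted for it lay at another GENCODE start site, at 113225908. That region, centred 45.1 kb upstream of the first of these (chr13:113225797-113226287), had ranks of 24.4 and 47.5 in iTreg+PBS and of 26.6 and 35.7 in iTreg+IL-4, with overlapping conditions. RefSeq gives Gzmk a single start site at 113180965, and by RefSeq the gene had a promoter peak in 0 libraries. The region nearest to the usual start, centred 2.7 kb upstream in an intron of the transcript from that upstream start site (chr13:113183051-113184054), was called in all 4 libraries at ranks of 11.7 and 26.8 without IL-4 and of 11.3 and 19.5 with IL-4.

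For Gzmc, GENCODE lists 1 start site (56234656 on chromosome 14, reverse strand), and no library had a peak within 1 kb of it, nor within 2.5 kb. RefSeq adds a start site at 56241647, and the region beside it (chr14:56240496-56241021) was called in all 4 libraries. It ranked at 41.5 and 67.7 for iTreg+PBS and at 34.6 and 48.7 for iTreg+IL-4, and the conditions overlapped. In GENCODE the same region lies at the start of the small RNA gene Gm24118. Whether Gzmc or Gzmk counts as having an open promoter thus turned on the annotation, and the number of member promoters was 6 by either.

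The promoter of Prf1, the gene of the pore-forming protein, had a region that ended 53 bases before the GENCODE start site (chr10:61296903-61297780, forward strand). Its heights were 77 and 21 fragments in iTreg+PBS and 69 and 42 in iTreg+IL-4. It ranked at 37.0 and 69.3 without IL-4 and at 37.2 and 48.1 with IL-4. The iTreg+IL-4 ranks lay between those of iTreg+PBS, and iTreg+PBS replicate 2 stood apart as the weakest. Of the genes compared, 91.1% had a stronger mean promoter rank.

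The Nkg7 promoter, over the start site of this granule membrane protein (chr7:43436329-43437256, forward strand), had the largest difference between conditions of the 6 member promoter regions called in all 4 libraries. Its heights were 131 and 51 fragments for iTreg+PBS and 86 and 49 for iTreg+IL-4. The ranks were 27.3 and 37.0 without IL-4, against 36.7 and 49.7 with IL-4, and they overlapped by less than 1 percentage point. Among the 47767 regions called in all 4 libraries, the percentage with a higher −log10 q was 43.8 and 43.6 in iTreg+PBS and 59.0 and 68.3 in iTreg+IL-4. On that scale the means were 43.7 ± 0.114 and 63.7 ± 6.57 (SD, n = 2 each), the conditions did not overlap, and the peak was 20.0 percentage points weaker with IL-4. Regions that ranked lower in both iTreg+IL-4 libraries on this scale made up 12.7% of all shared regions, so a call of this kind was common, and with 2 libraries against 2 no such difference can pass the exact permutation test.

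Fasl had the steadiest promoter. The region over its start site (chr1:161788097-161788764, reverse strand) had heights of 224 and 93 fragments in iTreg+PBS and of 218 and 161 in iTreg+IL-4. Its ranks were 14.04 and 17.5 without IL-4, against 13.6 and 15.6 with IL-4. These lay within 4 percentage points of each other and overlapped between conditions. A stronger mean promoter rank was found for 63.6% of the genes compared, the smallest share of any member.

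In order of mean rank over the libraries, the promoters ran from Fasl and Gzmb over Gzmk (at its upstream start site), Nkg7 and Prf1 to Gzma. Pooled over the 4 libraries, the ranks of neighbours in this order overlapped, least of all Gzmb (12.7 to 25.005) and Gzmk (24.4 to 47.5). Within each library, however, Gzmb was stronger than Gzmk, and Prf1 was stronger than Gzma. The other neighbours changed places: Fasl and Gzmb in iTreg+PBS replicate 1, Gzmk and Nkg7 in iTreg+PBS replicate 2, and Nkg7 and Prf1 in iTreg+IL-4 replicate 2. The median rank of the 6 promoter regions called in all 4 libraries was 25.8 and 42.3 in iTreg+PBS and 31.7 and 41.9 in iTreg+IL-4. That is weaker than the median of all promoter regions called in all 4 libraries, at 15.9, 19.9, 15.9 and 17.1 in the same order. The means of the medians were 34.0 ± 11.6 without IL-4 and 36.8 ± 7.21 with IL-4 (SD, n = 2 each), and the difference of 2.73 percentage points was smaller than the spread between replicates (p = 1, exact permutation test, two-sided). A single library decided its sign: it was -5.49 without iTreg+PBS replicate 1, -2.36 without iTreg+IL-4 replicate 2 and 11.0 without iTreg+PBS replicate 2. Ranked instead among the regions called in all 4 libraries, the medians were 41.5 and 49.6 in iTreg+PBS and 51.3 and 58.2 in iTreg+IL-4. On that scale the conditions did not overlap, and the difference was 9.20 percentage points (p = 0.333, exact permutation test, two-sided). With 2 libraries against 2 no smaller p was possible.

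Away from promoters, the Fasl and Gzmk windows held the most distal regions called in all 4 libraries, with 9 and 6. Gzma had 3, Gzmc and Prf1 2 each, and Gzmb and Nkg7 1 each. Over the windows of all protein-coding genes, more such regions were found for 2.11% of genes than for Fasl, for 5.53% than for Gzmk, for 18.8% than for Gzma, for 28.7% than for Gzmc and Prf1, and for 44.0% than for Gzmb and Nkg7. The Gzmk window is wider than the others because its GENCODE record reaches the upstream start site. The map of regions shows where they lie.

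**Figure D2:**
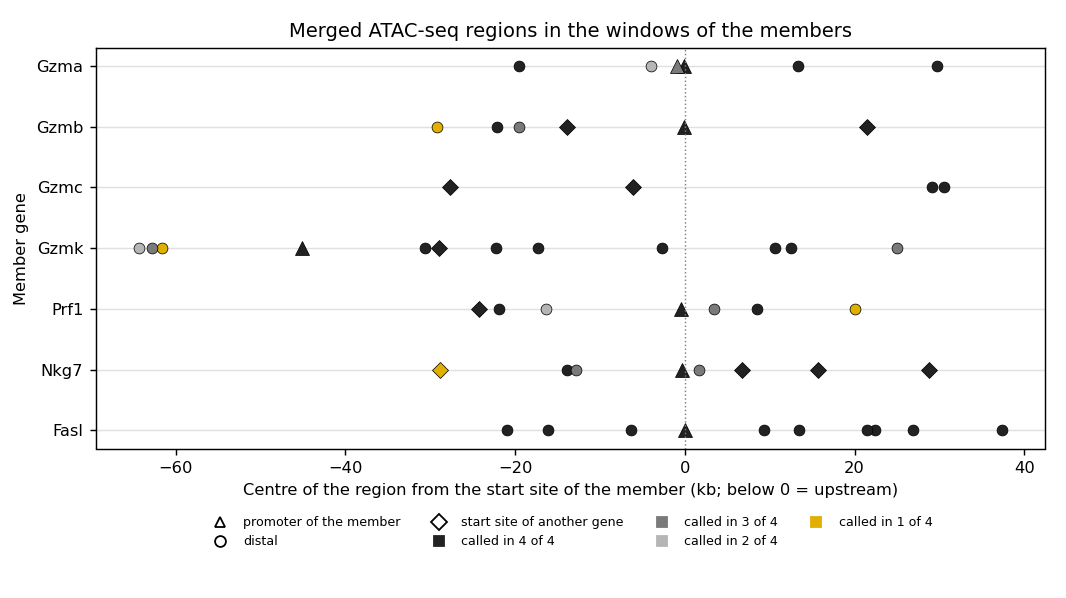
Regions in the window of each member by the distance of their centre from the start site of the gene (horizontal axis, kb, upstream to the left), with 1 row per gene and colour by the number of libraries with a peak. Triangles are promoters of a member, circles distal regions and diamonds start sites of other genes. All 10 regions of Fasl were called in all 4 libraries, against 8 of 12 for Gzmk and 4 of 6 for Gzma.

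All 10 regions of the Fasl window, the promoter included, were called in all 4 libraries. Its strongest distal region, 21.4 kb downstream of the start site and past the end of the gene (chr1:161766568-161767589), ranked at 6.66 and 9.56 for iTreg+PBS and at 5.40 and 8.2 for iTreg+IL-4. It was the strongest distal peak of any member. The region 26.9 kb downstream (chr1:161761333-161761928) ranked at 16.5 and 19.02 without IL-4 and at 12.5 and 14.7 with IL-4. Here the conditions did not overlap, and both iTreg+IL-4 libraries ranked it higher.

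The Gzmb window had 1 distal region in all 4 libraries, 22.1 kb upstream (chr14:56283788-56284982), between genes. It ranked at 8.66 and 17.5 in iTreg+PBS and at 9.23 and 13.4 in iTreg+IL-4, with overlapping conditions, and in each library it was stronger than the Gzmb promoter. The distal regions nearest to Gzmc, 29.1 and 30.5 kb downstream of its start, lie in introns of Gm4022, the first also in an intron of the granzyme gene Gzmf. Both were weaker, at ranks of 39.0 to 59.9 and of 49.1 to 69.5. Between these and the region beside Gm24118, no region was called around Gzmc.

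Of the Gzmk regions, those 2.7 kb and 17.3 kb upstream (chr13:113197631-113198676) were the strongest distal ones, the latter at ranks of 23.9 and 27.5 without IL-4 and of 24.5 and 27.2 with IL-4. The region 22.3 kb upstream (chr13:113202843-113203558), chosen here after its values were seen, had the largest difference in rank among all peaks of any shared member region. On the scale of shared regions its difference was -15.3 percentage points, smaller than that of the Nkg7 promoter. It ranked at 45.3 and 93.2 in iTreg+PBS and at 39.3 and 54.6 in iTreg+IL-4. The conditions overlapped, and the difference of -22.3 percentage points came with a single weak peak of 13 fragments in iTreg+PBS replicate 2.

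For Gzma, the strongest distal region lay 19.6 kb upstream (chr13:113120033-113121096), at ranks of 19.1 and 28.9 for iTreg+PBS and of 17.9 and 25.2 for iTreg+IL-4. The region 29.7 kb downstream, in an intron of Cdc20b (chr13:113070867-113071601), ranked at 22.1 and 35.4 without IL-4 and at 19.5 and 20.3 with IL-4. The first overlapped between conditions and the second did not, with both iTreg+IL-4 libraries higher. Both were stronger than the Gzma promoter in every library. Nkg7 had 1 shared distal region, 13.8 kb upstream (chr7:43422918-43423649), at ranks of 15.8 and 24.3 without IL-4 and of 17.6 and 18.1 with IL-4, which overlapped.

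The distal regions of Prf1 called in all 4 libraries were 2. The region 21.9 kb upstream (chr10:61275624-61276222) ranked at 35.1 and 51.7 in iTreg+PBS and at 46.3 and 47.3 in iTreg+IL-4, and the region 8.5 kb downstream (chr10:61306166-61306494) at 56.6 and 64.6 and at 61.0 and 52.4. The conditions overlapped at each of them. In the Prf1 gene itself, an intronic region 3.4 kb past the start, chosen after its values were seen, was called in 3 libraries and missed in iTreg+IL-4 replicate 2.

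Over all members, the distal regions called numbered 34 and 25 in iTreg+PBS and 34 and 30 in iTreg+IL-4. Of all regions of the genome, the same libraries called 81.2%, 58.9%, 82.9% and 71.1%, the lowest also in iTreg+PBS replicate 2. The means were 29.5 ± 6.36 and 32.0 ± 2.83 (SD, n = 2 each), and the difference of 2.5 regions lay inside the replicate spread (p = 1, exact permutation test, two-sided). Without iTreg+PBS replicate 2 the difference was -2 regions. The plot of distal regions by gene shows that Gzmk varied most, with 10 and 6 distal regions without IL-4, against 9 and 8 with IL-4, while Fasl had 9 in every library.

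**Figure D3:**
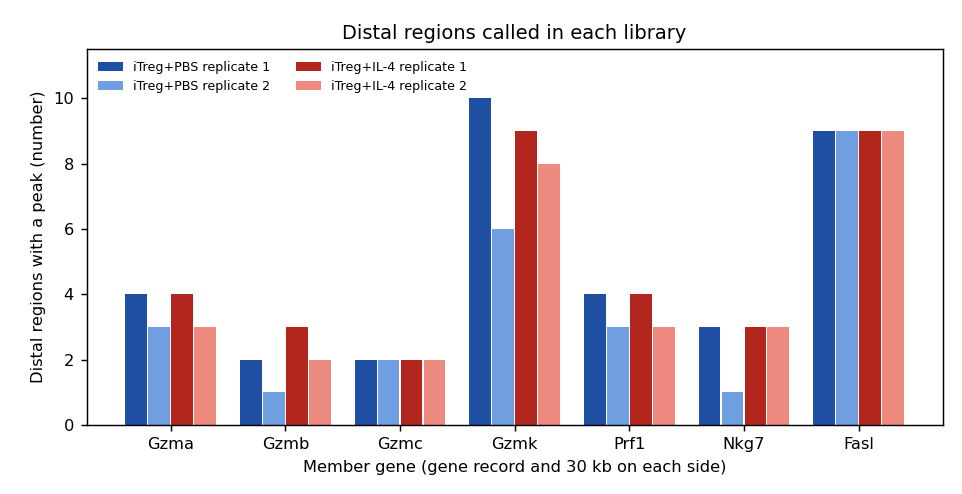
Number of distal regions called (vertical axis) in the window of each member (horizontal axis), with 1 bar per library from iTreg+PBS replicate 1 to iTreg+IL-4 replicate 2. Fasl had 9 in every library, and Gzmk ranged from 6 in iTreg+PBS replicate 2 to 10 in iTreg+PBS replicate 1.

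The bases inside peaks in the windows came to 28430 and 21442 for iTreg+PBS and to 30620 and 26105 for iTreg+IL-4. They made up 0.0700% and 0.0732% of all called bases without IL-4, against 0.0728% and 0.0726% with IL-4, so the totals moved with the length of the lists. The means were 24936 ± 4941 and 28363 ± 3193 bases (SD, n = 2 each), and they differed by 3427 bases, less than the replicates of either condition did (p = 0.667, exact permutation test, two-sided). Without iTreg+PBS replicate 2 the difference was -67.5 bases.

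The 24 distal regions called in all 4 libraries had a median rank of 24.4 and 42.4 in iTreg+PBS and of 24.3 and 36.5 in iTreg+IL-4. In the same libraries, the median of all distal regions of the genome called in all 4 was 37.9, 51.4, 37.2 and 42.9, so that those of the members were stronger in each library. The means of the member medians were 33.4 ± 12.7 without IL-4 and 30.4 ± 8.64 with IL-4 (SD, n = 2 each), and the difference of -3.00 percentage points did not exceed the differences between replicates (p = 0.667, exact permutation test, two-sided). Its sign turned when the rank was taken among the regions called in all 4 libraries (1.06), and without iTreg+PBS replicate 2 (6.01) or iTreg+IL-4 replicate 1 (3.11). By region, 18 of 24 had a stronger mean rank with IL-4 among all peaks, as did 73.3% of all shared distal regions. Ranked among the shared regions, 10 of 24 did, against 51.2%.

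Regions whose ranks did not overlap between conditions were few among the 37 called in all 4 libraries, and they are named here after their values were seen. Ranked among all peaks, 3 were higher in both iTreg+IL-4 libraries, where 19.7% of all shared regions were: those 29.7 kb downstream of Gzma, 26.9 kb downstream of Fasl and 28.8 kb downstream of Nkg7, the last in Vsig10l. In the other direction was 1, a region 22.4 kb downstream of Fasl (chr1:161765943-161766246), against 5.18% of shared regions. Ranked by height instead of −log10 q, this Fasl region stood at 24.4 and 26.4 without IL-4 and at 23.3 and 26.3 with IL-4. By height its conditions thus overlapped. Ranked among the shared regions alone, the Gzma and Fasl regions remained higher with IL-4 (2 regions, against 14.3%), and 3 were lower (against 12.7%): the Nkg7 promoter, the region 22.4 kb downstream of Fasl and the region 21.9 kb upstream of Prf1. Each of these counts was a smaller share of the 37 regions than that of all shared regions.

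The number of a library separated the member regions more often than the condition did. Among all peaks, 26 of the 37 regions ranked higher in both libraries numbered 1 than in both numbered 2, against 50.4% of all shared regions. Among the shared regions alone, 20 of 37 did, against 23.9%. The size of the difference between the numbers had a median of 9.56 percentage points over the 37 regions among all peaks, and that between the conditions of 3.06. On the scale of shared regions these medians were 7.09 and 3.78. Lists numbered 1 were the longer in each condition, and the part of depth in these differences was not tested.

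**Figure D4:**
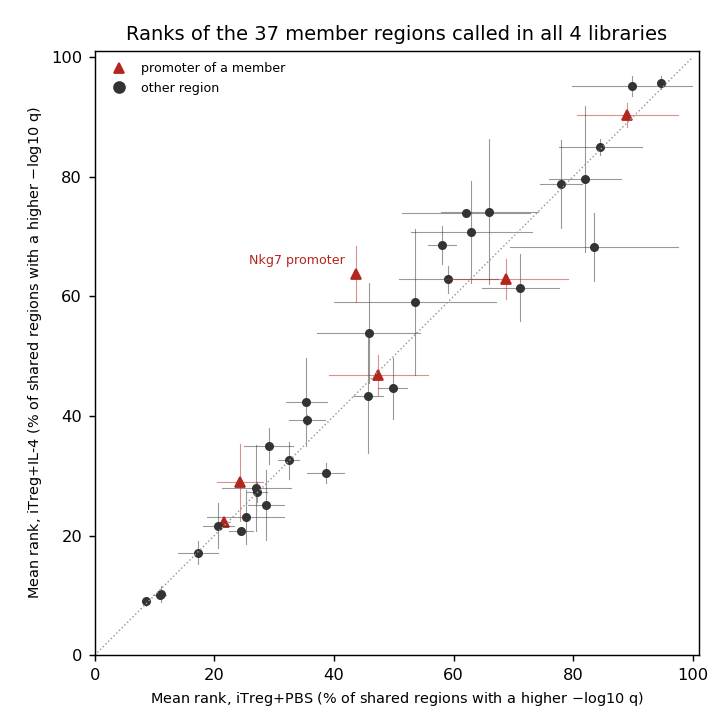
Mean rank among the 47767 regions called in all 4 libraries (percent with a higher −log10 q) in the 2 iTreg+PBS libraries (horizontal axis) and the 2 iTreg+IL-4 libraries (vertical axis) for the 37 shared member regions, as red triangles for promoters and black circles for other regions, with thin lines spanning the 2 replicates and a dotted line of equality. The points lie along that line, and the Nkg7 promoter lies farthest above it, at means of 43.7 and 63.7.

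Genes of the wider cytotoxic pathway were mostly open at their promoters as well. Of 51 genes listed, 50 had a record, and 38 of these had a promoter peak in all 4 libraries, 4 in some and 8 in none, where 60.2% of all protein-coding genes had one in all 4 and 33.7% in none. Per library they numbered 42 and 38 for iTreg+PBS and 42 and 39 for iTreg+IL-4, and the difference of 0.5 genes was less than the replicates differed (p = 1, exact permutation test, two-sided). Without iTreg+PBS replicate 2 it was -1.5 genes and without iTreg+IL-4 replicate 1 it was -1. No gene was open only with or only without IL-4. Klrd1, Klrk1 and Klrg1 had a promoter peak in the 2 libraries numbered 1 alone, and Zfp683 in every library but iTreg+PBS replicate 2.

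The 8 without a promoter peak in any library were the other granzymes on the list (Gzmd, Gzme, Gzmf, Gzmg, Gzmn and Gzmm), the serpin Serpinb9b and the killer lectin-like receptor Klrc1. The role with no open promoter was therefore that of the other granzymes, at 0 of 6, whereas Gzma and Gzmb had one in all 4 libraries. All 6 genes of granule content and maturation had a promoter peak in all 4 libraries. Ctsc, the protease that activates granzymes, ranked at 6.13 and 8.54 without IL-4 and at 6.00 and 7.37 with IL-4, and Ctsl at 7.51 and 9.76 without and 5.56 and 7.37 with IL-4. All 7 genes of granule transport and release were open, among them Lyst (2.93 to 3.83), which is mutated in Chediak-Higashi syndrome, and Stxbp2 (12.04 and 13.6 without, 8.68 and 9.08 with IL-4), a partner of syntaxins in granule fusion.

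Of 4 genes listed under granzyme and perforin inhibitors, 3 were open. The cathepsin gene Ctsb, not a serpin, ranked at 13.1 and 15.6 without and 12.4 and 11.8 with IL-4. The serpin gene Serpinb6b ranked at 38.2 and 44.0 without and 36.1 and 37.5 with IL-4. All 7 death ligands and receptors were open, with Fas, the receptor of Fas ligand, at 10.5 to 13.0 and its adaptor Fadd at 8.05 to 14.1. Of 8 killer and adhesion receptors, 4 had a peak in all 4 libraries, including Itgal (6.80 to 15.4) and Slamf7 (13.2 to 17.2). Of 12 transcription factors, 11 did, and Id2 (2.38 to 4.57) and Runx3 (1.63 to 5.98) ranked above every member promoter in every library. Among all peaks, 9 of the 38 pathway promoters (23.7%), including those of Ctsl, Stxbp2, Ctsb and Serpinb6b, ranked higher in both iTreg+IL-4 libraries, as did 19.9% of 13169 protein-coding genes, and 2 (5.26%) ranked lower, as did 5.67%.

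The protein-coding genes whose promoter ranks lay nearest to those of a member over the 4 libraries were sought among 13169 genes, by the Euclidean distance of the 4 ranks. For Fasl they were Stk35 (0.604 percentage points away) and Acyp2 (0.726), for Gzmb Fam110a (3.17) and Nfe2 (3.20), and for Gzmk Itih5 (2.68) and Pde3b (3.06). For Prf1 they were Gimap4 (5.90) and Lhx3 (5.98), for Nkg7 Prlhr (5.51) and Enthd1 (6.72), and for Gzma Map1b (6.29) and Calhm5 (6.56). No member was the nearest gene of another.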

How the data were processed

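ATAC-seq libraries (2 iTreg+PBS, 2 iTreg+IL-4) were grouped by the sample labels. The authors sequenced them on the BGISEQ-500 platform, mapped paired reads to mm10 with Bowtie2 2.2.5 and called peaks in each library with MACS2 2.1.2, without pooling. How duplicates, mitochondrial reads and the transposase offset were treated is not given in the sources used here. The deposited lists have no column names, and their values were read from their range as −log10 of the q-value (lowest values of 1.31 in each list, close to the 1.30 of a q of 0.05) and as the pileup signal, the height in fragments, unscaled between libraries. Both values served only within a list.

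Peaks were merged and compared in Python 3.11.15 (scipy 1.17.1, pandas 2.3.3, numpy 2.4.6), and plots were drawn with matplotlib 3.10.9. Start sites came from GENCODE M21, with RefSeq GRCm38 records as an alternative, and sequences were read in Python from the GRCm38 assembly. The strongest peak of a region in a library gave its rank. Values per library were compared by exact two-sided permutation tests. The named genes were all members, and the named regions every member promoter, those called in one condition only, and per member the 2 distal regions called in all 4 libraries with the best rank in their weakest library. A few regions outside this rule were named after their values were seen, and the text says so. Of each role in the pathway, the genes without a promoter peak and the 2 with the best promoter rank in their weakest library were named. The members and lists were chosen with earlier results of these data known. One marker gene of the lists is not reported here. Region counting was tested on simulated lists. Alternatives kept the upper 50% or the 56645 strongest peaks of each list, used RefSeq records, promoters of 500 bases or 2.5 kb, windows of 10 or 100 kb, a cover of 50%, other ranks or a replicate block, or left out a library.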

Additional observations from a re-analysis of the deposited data

How the results depend on the processing

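Of 89 alternative values for 8 results, 65 kept their direction and their side of the threshold or, for counts without a test, their value, though several of these grew or shrank by over 1.5 times. A further 13 moved and 11 turned in sign, and the lowest p of any was 0.333. No alternative could pass the threshold with so few libraries, and those with a replicate block equalled the main values by construction. With the upper 50% of each list, the IL-4 minus PBS difference was 1 member promoter with a peak (Gzma kept its peak in 1 library and Prf1 in 3) and 0 distal regions, and with lists of equal length it was 0.5 promoters (Gzma lost iTreg+PBS replicate 1), 1.02 percentage points in the median distal rank, and 1 region was called only with IL-4. That count was also 1 at a cover of 50%. With windows of 10 kb the difference in distal regions was 0. Ranked among the shared regions, the difference was 1.06 in median distal rank and 9.20 in median promoter rank. By RefSeq records, that in median promoter rank was -0.238, and that in pathway promoters was 0, as it was for promoters of 500 bases. Leaving out each library in turn, the difference ranged from -2 to 7 distal regions, from -67.5 to 6921 bases, from -5.49 to 11.0 percentage points in median promoter rank, from -12.0 to 6.01 in median distal rank and from -1.5 to 2.5 pathway promoters, and stayed at 0 member promoters. Regions called only with IL-4 then numbered 0 to 6, the 6 without iTreg+PBS replicate 1, and only without IL-4 0 to 1.

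The replicate numbers of the labels are not stated to pair the libraries. Deviations from the group means of same-numbered libraries had r = 0.452 over all shared regions and r = 0.449 over the 37 of the members, with 2 numbers only. With the number as a replicate block the differences were the same by construction, such as 2.5 distal regions, 3427 bases and -3.00 percentage points in median distal rank, and the smallest p such pairing allows is 0.5.

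Without read numbers, the depth behind a missing peak is unknown, 2 libraries per condition cannot pass a permutation test at 0.05, and chromatin peaks give no level of expression.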
